A study of Homo sapiens with 3 samples.

Results

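The cells described here are 400 of 8913 cells of 1 pool and carry the highest share of their transcripts in HMGA2, IL1RAPL1 and SAMD3. A cell is a barcode with at least 1000 unique molecular identifiers (UMIs, 1 per captured transcript), at least 1000 counts in chromatin peaks and a mitochondrial share of UMIs no higher than 20%. Cells were ranked by the share of UMIs in the 3 genes, and ties were broken by more UMIs. The measured values of those genes therefore chose the members, and apart from 1 description of the choice the genes stay out of the comparisons below.

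The series profiled RNA and open chromatin from the same cells (10x Genomics Multiome) in NCI-H226, an established human mesothelioma line without NF2, and in NCI-H226_CL3, its resistant derivative. CL3 is 1 clone, grown out under a TEAD inhibitor whose concentration was increased stepwise (0.1 to 0.5 µM a step) between 0.25 and 3 µM. The 4 hashtags stand for each line with the inhibitor GNE7883 or with its vehicle, DMSO. The matrix names 0 hashtags among its features and all barcodes carry 1 suffix, so no cell could be placed in a line or treatment, all cells form 1 sample, and no condition is compared. Cells of 1 sample are not replicates: no test was run, and the 95% intervals given cover counting error only.

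HMGA2 is a small protein that bends AT-rich DNA. It is abundant in the embryo, silent in most adult tissue, switched on again in many tumours, and a target of let-7 microRNAs. IL1RAPL1 is a synaptic adhesion receptor of the interleukin-1 receptor family, encoded by one of the longest human genes, on the X chromosome. SAMD3 carries a sterile alpha motif, and its role is less well known. In cells without NF2 the Hippo kinases no longer restrain YAP and TAZ, which act through TEAD factors, the proteins that the inhibitor blocks.

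Inside the group the share ran from 0.130 to 1.00% of a cell's UMIs, with a median of 0.185%. The last cell inside had 0.130378% and the first outside 0.129955%, so the border divides a continuum. Members held 2 to 39 UMIs of the 3 genes with a median of 3; 143 members held only 2, and 37 held 10 or more. The cell with the highest share had 11 HMGA2 UMIs among 1099. The fifth cell had 39 among 5831, of which 19 were HMGA2, 14 SAMD3 and 6 IL1RAPL1. HMGA2 was seen in 371 members (92.8%), SAMD3 in 191 (47.8%) and IL1RAPL1 in 163 (40.8%). In other cells the shares were 14.4, 5.05 and 3.71%. UMIs of 1 gene alone were found in 135 members, of 2 genes in 205 and of all 3 in 60. Most members thus held HMGA2 UMIs, and at this depth a gene that is absent and one that was not sampled cannot be told apart.

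**Figure D1:**
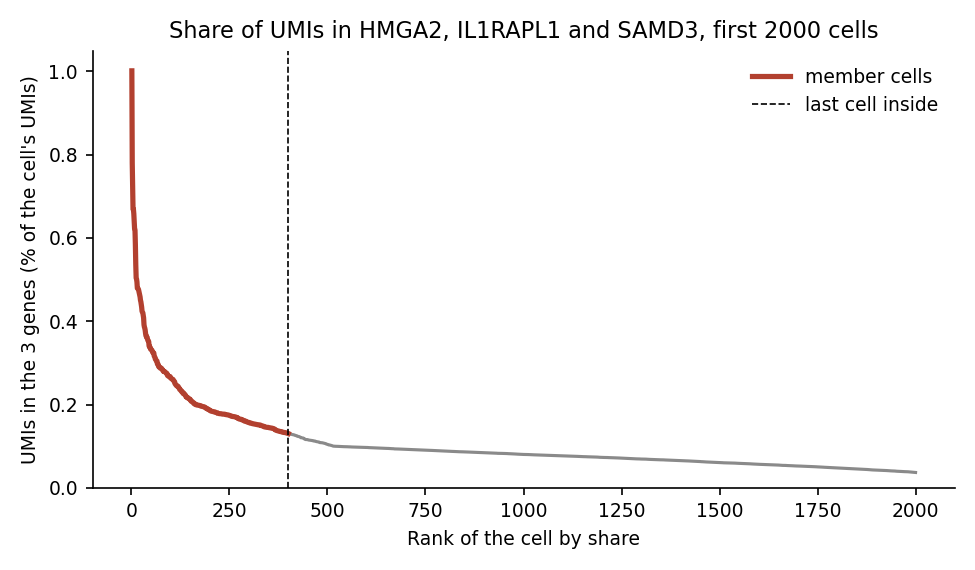
Share of each cell's UMIs in HMGA2, IL1RAPL1 and SAMD3 (y axis, percent) against the rank of the cell (x axis, the highest ranks of 8913 cells). Members are the red stretch, and the dashed line marks the last cell inside; the curve falls from 1.00% to 0.130% without a gap at the line.

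To describe the choice, each gene was left out of it in turn and read in the 400 cells that the other genes then chose. SAMD3 stood at 251 CPM (UMIs scaled to a common total per group) in cells chosen by HMGA2 and IL1RAPL1 and at 36.5 in the rest, 6.87-fold higher (95% interval 5.83 to 8.07). IL1RAPL1 stood at 188 against 29.7 CPM, 6.34-fold higher (5.25 to 7.62). HMGA2 stood at 721 against 141 CPM, 5.13-fold higher (4.63 to 5.67), although only 180 of the cells chosen without it were members. Each gene was higher in the cells picked by the others. Of the 400 cells chosen without HMGA2, 180 held 1 UMI of the genes that then chose them. Members were chosen with earlier results of these data known, so these values describe the choice and do not test the label. The 3 genes are on separate chromosomes (12, X and 6).

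Members resembled the other cells in depth. Their UMIs ran from 1005 to 8198 with a median of 1485, against 1527 in the others, and their median peak counts were 4377 against 4028. Mitochondrial genes took a median of 13.2% against 13.9%. Sums over the members rest on 781999 UMIs and sums over the 8513 other cells on 15806149. Scrublet, a doublet caller, made 0 automatic calls and is taken as not having worked, so the cells include doublets.

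The labels give lung epithelium as tissue and mesothelioma as cell type. All 16 mesothelial marker genes listed had UMIs, and KRT8, KRT18 and CALB2 (calretinin) stood at 1860, 2929 and 463 CPM in members. Of the 15 epithelial and squamous markers, NKX2-1, CLDN7 and KRT6A had no UMI in any cell and EPCAM had none in a member; the list summed to 1345 CPM in members and 1952 in other cells, nearly all of it KRT7, a keratin (1281 and 1853 CPM). Of the 12 immune markers, CD3E, MS4A1 and NKG7 had no UMI in any cell, and the list summed to 11.5 CPM in members and 9.93 in other cells. The 8 endothelial markers, with CLDN5 at 0, summed to 60.2 and 58.1 CPM, and the 12 neuronal ones, with DCX, NEFL and NEFM at 0, to 100.0 and 67.3 CPM, mostly SYT1 (synaptotagmin, 66.7 against 40.1 CPM). The fibroblast and smooth muscle list, with COL1A2 at 0, summed to 264 and 269 CPM.

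A gene was compared when it had at least 100 UMIs in all and at least 20 CPM in the higher group. It was called at a 2-fold difference with an interval that excludes 1. Of 7183 genes compared, 180 (2.51%) were called higher and 76 (1.06%) lower in members. Of these, 94 of the higher and 58 of the lower calls passed the floor through only 1 group, and such a gene had to differ to be compared. With TMM scaling, which shifts each log2 ratio by -0.17, 81 genes were called higher and 148 lower, so the balance of directions rests on the scaling. The median log2 ratio of all genes was 0.09. Among the 1592 cells with at most 10% mitochondrial UMIs there were 85 members, and 54 genes were called higher. In those 85, of the genes named below, TSPAN5, SLC7A11, SESN2, SYT1 and IMMP2L were below the other cells and ADAMTS3 above, on few UMIs.

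HMGA2-AS1 led the list, with 39 UMIs in members and 62 in all other cells. It is transcribed opposite to HMGA2 within that gene, and because the strand setting of the counting is not given, its reads and those of HMGA2 cannot be told apart. MEG8, a long noncoding RNA of the imprinted region on chromosome 14, stood at 35.9 CPM against 5.44, 6.60-fold higher (4.14 to 10.2). BMPER, a secreted regulator of bone morphogenetic proteins, stood at 52.6 against 10.8 CPM, 4.89-fold higher (3.39 to 6.91). PLAT, the tissue plasminogen activator, stood at 48.7 against 10.0 CPM, 4.87-fold higher (3.33 to 6.98).

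ADAMTS6, a secreted metalloprotease, reached 155 against 43.3 CPM (3.58-fold, 2.92 to 4.35) and was seen in 18.3% of members and 6.16% of other cells. ITGA2, the collagen-binding integrin subunit alpha 2, stood at 70.5 against 18.5 CPM (3.82-fold, 2.81 to 5.10). VEGFC, the growth factor of lymphatic vessels, stood at 88.4 against 24.7 CPM (3.57-fold, 2.73 to 4.63). TSPAN5, a tetraspanin that escorts the protease ADAM10, stood at 69.2 against 18.8 CPM (3.68-fold, 2.70 to 4.94). MIR31HG, the host transcript of miR-31, was the most abundant of the 15 leading genes, at 225.6 against 73.3 CPM (3.08-fold, 2.61 to 3.61). The other leading genes were KIAA1549L (5.50-fold), DEC1 (4.90-fold), AC078923.1 (4.17-fold), CFAP299 (4.08-fold), SPRY4-AS1 (3.92-fold) and ARMC9 (3.36-fold). These 15 genes lie on 9 chromosomes.

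At equal depth, with each cell thinned to 1000 UMIs, MIR31HG was seen in 17.0% of members (13.5 to 21.0) and 7.07% of other cells (6.54 to 7.64). Without thinning the shares were 29.8% and 12.0%. ADAMTS6 was seen in 9.50% of thinned members and 3.75% of thinned other cells.

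The 15 genes with the firmest lower ratios held 1 member of the mesothelial list, UPK3B. SLPI, a secreted protease inhibitor, stood at 1552 against 2938 CPM, 1.89-fold lower (1.79 to 2.01), and was seen in 75.3% of thinned members and 88.3% of other cells. UPK3B, a uroplakin of mesothelial cells, stood at 124 against 279 CPM, 2.25-fold lower (1.84 to 2.78). VTN (vitronectin, an adhesive plasma protein) stood at 65.4 against 146 CPM, 2.24-fold lower (1.69 to 3.01). The acute-phase protein SAA1 and the complement factor CFB were 1.91-fold and 1.93-fold lower. PTPRQ, a receptor phosphatase of inner-ear hair bundles, stood at 129 against 270 CPM, 2.08-fold lower (1.71 to 2.56).

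The other genes of that set were rarer. SASH1, a scaffold protein, had 12 UMIs in members (2.95-fold lower, 1.68 to 5.73), HSD3B1, a steroid dehydrogenase, had 12 (2.94-fold lower), and OLFML1 had 13 (3.15-fold lower). WDR6, B4GALNT3, SOX2-OT, LINC02009 and LRRC7 had 4 to 8 UMIs in members and were 4.87-fold, 4.31-fold, 4.15-fold, 3.86-fold and 3.23-fold lower. DISC1FP1, at 129 against 253 CPM, was 1.96-fold lower. For the rare genes the intervals are wide, and that of WDR6 runs from 1.89 to 17.98.

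**Figure D2:**
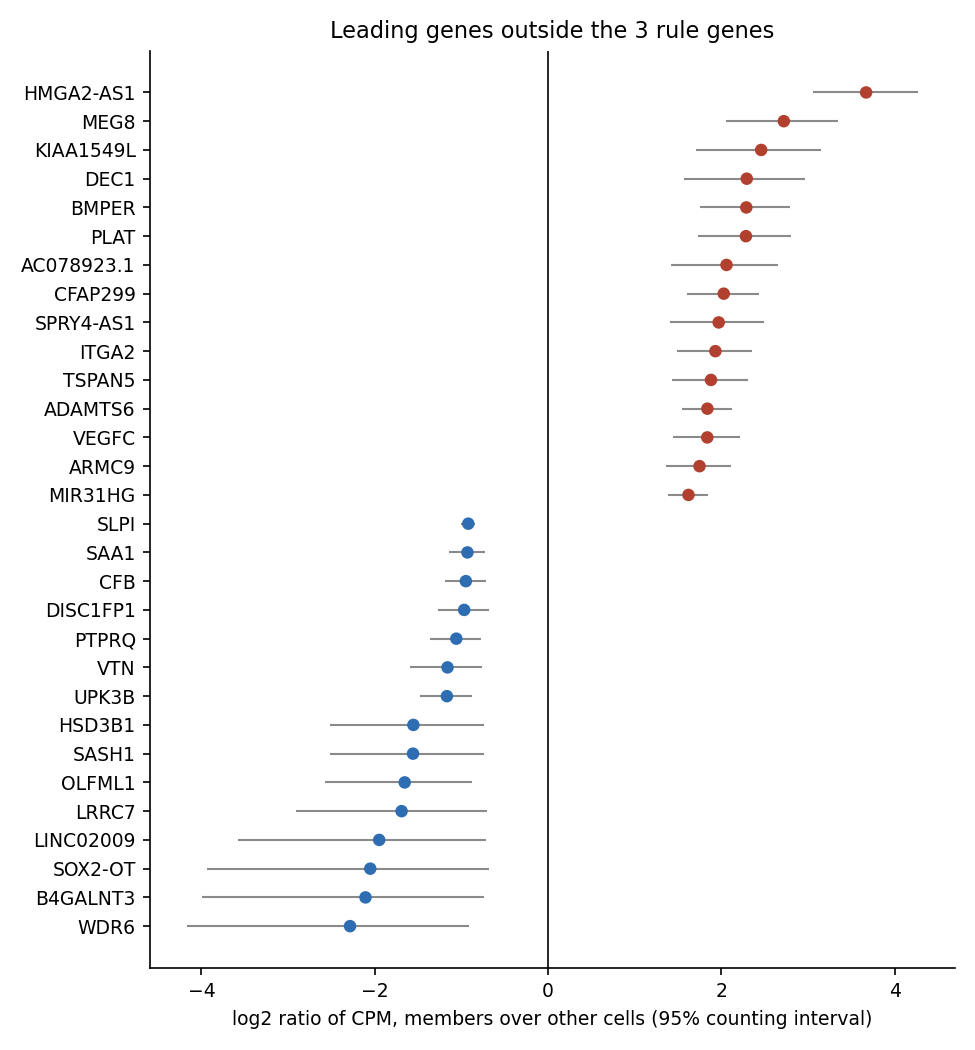
Log2 ratio of CPM in the 400 members over the 8513 other cells (x axis) for the 15 genes with the highest lower bound and the 15 with the lowest upper bound, and bars are 95% counting intervals. HMGA2-AS1, whose reads cannot be told apart from those of HMGA2, stands at 3.67 and WDR6 at -2.29. The bars of rare genes are the widest.

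Gene lists were read at 1.5-fold with an interval that excludes 1, which 9.8% of all genes passed upwards and 3.66% downwards. The interferon-induced genes stood out by their count: 10 of 22 compared were higher and 0 lower, with a median log2 ratio of 0.41. HERC6, a ubiquitin ligase, stood at 44.9 against 19.4 CPM (2.31-fold, 1.58 to 3.28). DDX60, an RNA helicase of antiviral defence, stood at 93.6 against 46.8 CPM (2.00-fold, 1.55 to 2.55). IFI44 was 1.90-fold higher (1.33 to 2.64) and SAMD9 1.61-fold higher (1.36 to 1.91). IFIT3, XAF1, SAMD9L, DDX58, MX2 and OAS3 were the other 6. The summed level was 1493 CPM in members and 1109 in other cells.

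Acute-phase and secretory genes stood at the other end, with 8 of 10 lower and a median of -0.93. Beside SLPI, SAA1 and CFB the lower genes were C3 (complement component, 1.71-fold, 1.47 to 2.00), SFTPD, CHI3L1, SAA2 and ISM2. Mesothelial markers were lower in 3 of 12 (UPK3B, CALB2 and MSLN) and higher in 0, with a median of -0.51. CALB2 stood at 463 against 786 CPM (1.70-fold lower) and MSLN, mesothelin, at 48.7 against 80.5 (1.65-fold lower). Of the epithelial markers, DSC3 (desmocollin, a desmosome cadherin) was 1.59-fold lower. Genes of cholesterol synthesis were lower in 3 of 22 (MVD 1.78-fold, EBP 1.58-fold and the regulator INSIG1 1.52-fold) and higher in 0, with a median of -0.27. In the NF-kB list 1 of 13, SOD2 (mitochondrial superoxide dismutase), was lower at 1.56-fold.

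The acute-phase, mesothelial and housekeeping lists, all lower in their sum in members, were more abundant still in free RNA, read from 1594 barcodes with 10 to 100 UMIs. Acute-phase genes summed to 2441 CPM in members, 4529 in other cells and 7233 in free RNA. Mesothelial markers summed to 7206, 10428 and 12672 CPM. In single cells the mesothelial list took 0.119 to 1.88% of UMIs in members (median 0.762%) and 0.0754 to 3.90% in other cells (median 0.991%), so the ranges overlap. The 13 housekeeping genes, none of which passed the rule, summed to 13518, 15853.5 and 21307.5 CPM. Interferon genes ran the other way, at 695 CPM in free RNA. The part of free RNA in these differences was not tested.

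Gene length moved with the ratio as well. The median log2 ratio was higher in each longer class, from -0.18 for 1064 genes spanning under 10 kb to 0.40 for 365 genes over 300 kb, and 9.86% of the latter were called higher at 2-fold, against 0.658% of the former. Among giant genes 4 of 15 were higher (PTPRD 2.34-fold, NEGR1 1.93-fold, WWOX 1.63-fold and IMMP2L 1.52-fold) and 0 lower. IL1RAPL1, which helped to choose the cells, is itself such a gene. The part of gene length in the results was not tested.

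In the MAPK output list, 3 of 8 genes were higher and 0 lower, with a median of 0.43. PHLDA1, induced by growth factor signalling, stood at 142 against 54.9 CPM (2.59-fold, 2.11 to 3.16), and the RAS pathway inhibitors SPRED1 and SPRED2 at 1.69-fold and 1.63-fold. Among the 85 members with at most 10% mitochondrial UMIs the list median was -0.003. Of the AP-1 family, FOSL1, a FOS relative downstream of ERK, stood at 138 against 65.0 CPM (2.13-fold, 1.73 to 2.60), and it was the only one of 7 past the rule. NRG1, the ligand of ERBB3, stood at 112 against 36.9 CPM, 3.02-fold higher (2.38 to 3.79), while its receptor ERBB3 stood at 20.5 against 37.2, 1.81-fold lower (1.11 to 3.20). ROR1, a WNT5A receptor, was 1.59-fold higher, alone among 8 other receptor tyrosine kinases compared.

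Of the YAP/TEAD targets, 3 of 18 were higher (ASAP1 1.64-fold, NT5E 2.05-fold and DLC1 1.59-fold) and 1 was lower (AJUBA 2.18-fold). The list median was 0.10, close to that of all genes, and -0.07 under TMM scaling, which shifts the log2 ratios of all genes alike by -0.17. Among 15 Hippo pathway genes FAT1, a giant cadherin upstream of the kinases, was 1.51-fold lower and 0 were higher. These counts stand beside 9.8% higher and 3.66% lower among all genes compared.

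RUNX2, a transcription factor of bone formation, stood at 78.2 against 35.5 CPM (2.20-fold, 1.66 to 2.87). Its partner CBFB, needed for RUNX proteins to bind DNA stably, was 1.96-fold higher (1.55 to 2.45), making 2 of 5 in the RUNX list. Of the ADAMTS proteases, ADAMTS6, ADAMTS12 (220 against 88.2 CPM, interval of the ratio 2.12 to 2.93) and ADAMTS1 (2.20-fold) were higher and ADAMTS3 was 1.53-fold lower, of 6 compared. The transcriptional repressors ZEB1 and ZEB2, which drive mesenchymal change, were 1.55-fold and 1.57-fold higher, 2 of 13 in their list. Besides ITGA2, the fibronectin receptor subunit ITGA5 was 1.58-fold higher, giving 2 of 15 integrin and matrix genes. In the activin and BMP list, SMAD3 (1.53-fold), ACVR1 (1.64-fold) and TGFBR1 (1.64-fold) were higher, while BMP4 (2.17-fold) and the BMP-responsive gene ID1 (96.1 against 186 CPM, 1.93-fold) were lower.

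The counts of cell cycle genes stand beside the 9.8% of all genes that were higher. In the S-phase list BRIP1 (a DNA repair helicase, 2.01-fold) and TYMS (thymidylate synthase, 1.57-fold) were higher, 2 of 18. Its median log2 ratio was 0.30, beside 0.09 for all genes, and its summed level was 1131 CPM in members and 924 in other cells. In the G2/M list RANGAP1, NUF2 and NDC80 were higher at 1.63-fold, 1.62-fold and 1.52-fold, 3 of 43. The G2/M median was 0.14, and -0.04 under TMM scaling, which shifts the log2 ratios of all genes alike by -0.17. Of 14 hypoxia and glycolysis genes, NDRG1 (2.04-fold), VEGFA (1.79-fold) and SLC2A1 (glucose transporter, 1.65-fold) were higher. Of 14 stress genes of the ATF4 and unfolded protein list, SLC7A11 (cystine transporter, 1.66-fold), VEGFA and SESN2 (1.60-fold) were higher, and XBP1, a regulator of the secretory pathway, was 2.05-fold lower. SESN1, like SESN2 a p53 target, was 1.82-fold higher, making 2 of 17 in that list, and HMOX1, heme oxygenase, had 5 UMIs in members and was 3.18-fold lower (1.35 to 9.86).

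Smaller lists held single genes. BCL2L1, the survival factor BCL-XL, was 1.58-fold higher, and the efflux pump ABCC3 1.67-fold. In the HMGA2 and let-7 list NRAS (1.65-fold) was higher and CCND2, a D-type cyclin, was 2.04-fold lower. Among the receptors related to IL1RAPL1, IL1RAP, the shared interleukin-1 co-receptor, was 1.76-fold higher while IL1R1 was 1.62-fold lower, and the latrophilin ADGRL3 was 2.40-fold lower. Among nuclear noncoding RNAs, PVT1 (1.56-fold) and LINC-PINT (2.02-fold) joined MIR31HG, and DANT2 was 1.76-fold lower. HOX genes had 0 of 4 past the rule.

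**Figure D3:**
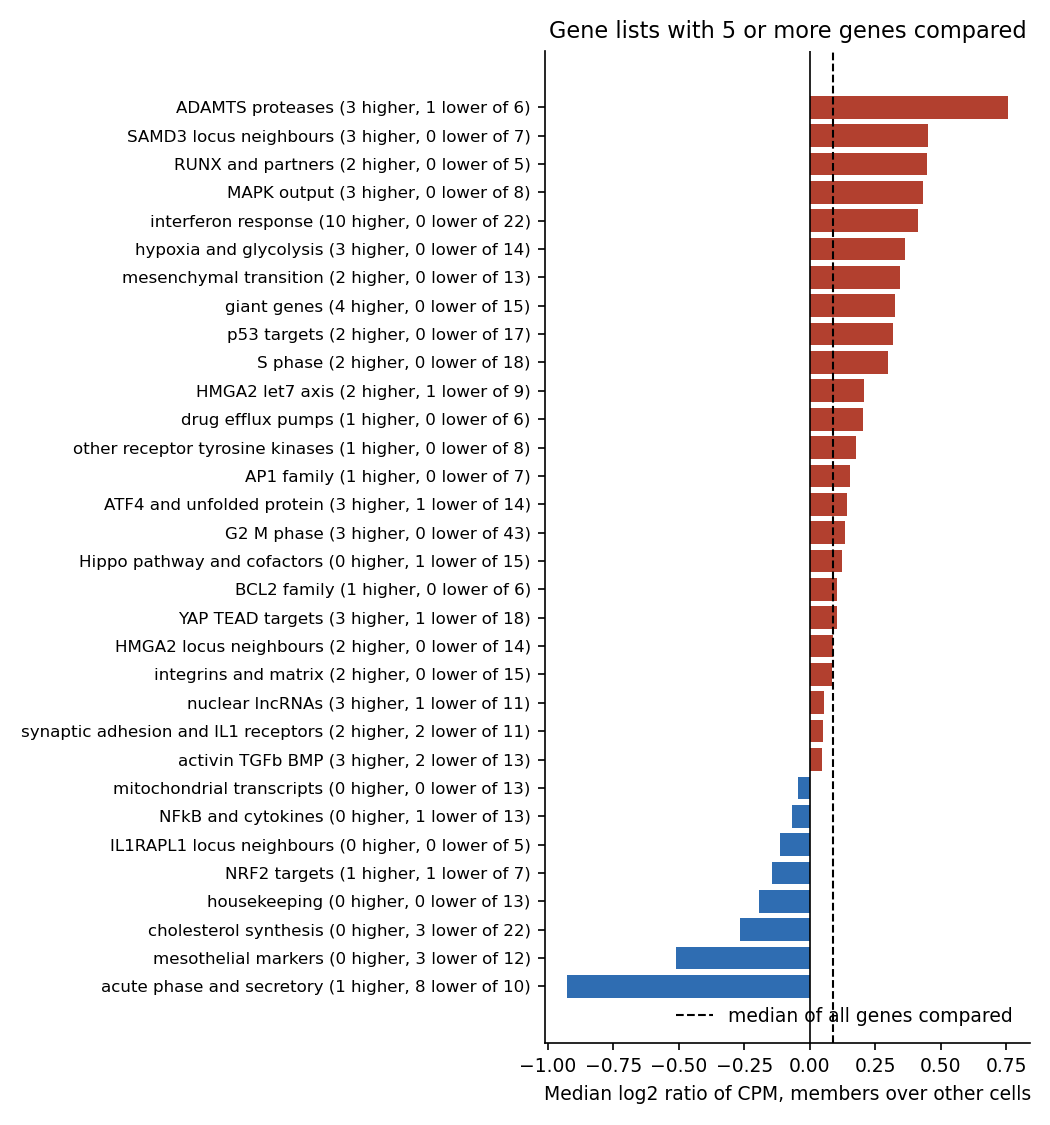
Median log2 ratio of CPM, members over other cells (x axis), for the lists with 5 or more genes compared; brackets give how many genes passed 1.5-fold each way. Acute-phase genes lie at -0.93 and interferon genes at 0.41, and the dashed line is the median of all 7183 genes (0.09).

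The neighbours of the rule genes were read on their own. Around SAMD3 3 of 7 genes compared were higher: TMEM200A (65.4 against 19.7 CPM, 3.31-fold, 2.41 to 4.46), ARHGAP18, a GTPase-activating protein (2.46-fold, 1.92 to 3.12), and the receptor phosphatase PTPRK (1.53-fold, 1.33 to 1.75). TMEM200A and SAMD3 start next to each other on opposite strands, so the rule may bear on TMEM200A too, which was not tested. Around HMGA2 2 of 14 were higher, MSRB3 (1.85-fold) and YEATS4 (1.70-fold), and around IL1RAPL1 0 of 5. The shared start region is printed because both genes start there and both were higher in the sum over members, SAMD3 by the rule. Whether single cells held both was not tested. The window is RefSeq's promoter window for SAMD3 (250 bases before the start and 50 after, GRCh38.p14, minus strand, chr6:130365819-130366118). It is all in lower case because none of 4 motifs searched is in it.
SAMD3: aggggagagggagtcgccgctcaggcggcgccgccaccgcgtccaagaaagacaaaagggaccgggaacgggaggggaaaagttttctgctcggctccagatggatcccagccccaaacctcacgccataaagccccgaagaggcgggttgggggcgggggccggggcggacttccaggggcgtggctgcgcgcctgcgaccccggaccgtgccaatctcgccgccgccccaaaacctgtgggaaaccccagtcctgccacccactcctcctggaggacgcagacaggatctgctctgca

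The chromatin at the rule's loci was measured independently of the choice, which used no peak. Peaks of a locus are those within the gene or up to 10 kb before its start. The 25 HMGA2 peaks summed to 110 CPM of peak counts in members and 96.9 in other cells, a ratio of 1.14 (0.939 to 1.35). The 20 SAMD3 peaks gave 1.20 (0.936 to 1.51) and the 69 IL1RAPL1 peaks 0.910 (0.755 to 1.10). All 3 intervals include 1, so a difference was not detectable at this depth. Of the 6 single peaks deep enough to compare, 1 had an interval above 1: a peak in HMGA2 at chr12:65891742-65892625, 67.7 kb from the start, with 51 counts against 621, a ratio of 1.62 (1.06 to 2.47). The others were 2 HMGA2 peaks at 44.0 and 124.4 kb (ratios 1.14 and 0.884), 1 IL1RAPL1 peak (0.943) and 2 SAMD3 peaks (1.19 and 1.20).

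Over all peaks, 30692 had at least 100 counts and a level of 10 CPM in the higher group. Of these 1027 (3.35%) were called at 2-fold higher and 550 (1.79%) lower in members. The floor was passed through only 1 group by 954 of the higher and 526 of the lower peaks. With the floor set on all cells instead, 92 were higher and 513 lower. Away from gene starts 5.35% were higher and 2.56% lower, against 1.45% and 1.07% of peaks within 1 kb of a start, shares that depend on the floor. The 10 higher peaks with the highest lower bounds included chr1:198776212-198777233, with 32 counts in members and 120 in other cells (5.26-fold, 2.83 to 9.25). A peak at chr5:69449897-69450769, 30510 bases from the nearest listed start (MARVELD2), was 5.38-fold higher (2.83 to 9.25).

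Among the lower peaks, chr3:196108027-196108942, 25932 bases from the start of TFRC (the transferrin receptor), had 1 count in members and 569 in other cells, a ratio of 0.035 with an interval from 0 to 0.258. For that interval the single count was rounded to 0 events, and with 1 event its upper bound would be higher. A peak at chr12:53145121-53146012 had 0 counts in members and 511 in other cells, and the bound of its interval is 3.49-fold lower. A peak at chr16:66277793-66278692 had 11 counts against 1137, 5.24-fold lower (2.19 to 13.1). Because most counts come in pairs (87.9% of entries are even), each interval treats 2 counts as 1 event.

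Chromatin around the called genes was read from all peaks within 50 kb of a gene's start region, at a difference of at least 25%, in genes with at least 400 counts there. Of 7146 such genes 3.02% were more and 3.48% less accessible in members. Of the 177 genes called higher in RNA, 18 were more accessible and 2 less. Of the 76 called lower, 0 were more accessible and 11 less. The ratio exceeded 1 for 13 of the 15 leading higher genes and for 1 of the 15 leading lower ones, beside 51.8% of all genes compared. These genes were chosen on the RNA of the same cells, so the shares are a description. Of the calls, 94 of 180 higher and 58 of 76 lower passed the RNA floor through only 1 group, the 4 higher genes named next among them. KIAA1549L (1.34, 1.11 to 1.60), TSPAN5 (1.36, 1.07 to 1.72), ITGA2 (1.27, 1.02 to 1.56) and PLAT (1.26, 1.06 to 1.48) were the 4 higher genes past the rule. Of the lower genes 5 passed: HSD3B1 (0.588), PTPRQ (0.631), SOX2-OT (0.666), OLFML1 (0.682) and UPK3B (0.766). WWOX, higher in RNA at 1.63-fold, was less accessible (0.735, 0.589 to 0.906). For the 4 higher genes the ratio in accessibility was smaller than that in RNA.

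RUNX2 was 1 of the 18 genes higher in both readouts: peaks around it had 247 counts against 3805, a ratio of 1.28 (1.06 to 1.54). RUNX2 has alternative starts, and their windows are printed because they differ in letters and in depth. At the downstream start (chr6:45422025-45422324, plus strand) the overlapping peak had 48 counts against 534, 1.77-fold higher (1.12 to 2.69). Start windows were read for most named genes, without allowance for their number. Besides this one, only that of SESN2 had an interval above 1 (98 against 1274 counts, 1.52-fold, 1.11 to 2.03). At the upstream RUNX2 start (chr6:45328080-45328379, plus strand) the peak had 9 against 86, too few to place the ratio of 2.06 (0.478 to 5.05). Capitals mark a TEAD motif in the first and 3 RUNX motifs in the second, which also holds an AP-1 match from base 8, left in lower case.
RUNX2 downstream: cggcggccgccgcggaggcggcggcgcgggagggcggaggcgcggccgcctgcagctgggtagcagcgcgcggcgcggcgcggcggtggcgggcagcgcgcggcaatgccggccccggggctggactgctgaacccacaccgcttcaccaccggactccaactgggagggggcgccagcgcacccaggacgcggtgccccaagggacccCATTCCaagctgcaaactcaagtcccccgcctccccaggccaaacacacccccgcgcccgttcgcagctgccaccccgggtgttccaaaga
RUNX2 upstream: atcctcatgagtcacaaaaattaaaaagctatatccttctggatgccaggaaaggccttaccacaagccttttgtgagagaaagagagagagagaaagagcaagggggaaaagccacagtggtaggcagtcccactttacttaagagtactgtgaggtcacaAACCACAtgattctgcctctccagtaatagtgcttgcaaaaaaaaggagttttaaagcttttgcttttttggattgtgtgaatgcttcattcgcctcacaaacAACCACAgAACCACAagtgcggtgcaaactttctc

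For DDX60, with RNA 2.00-fold higher, a difference at the start was not detectable, where the peak had 24 counts against 477 (0.992, 0.507 to 1.77). This interval overlaps that of the downstream RUNX2 start (1.12 to 2.69), so the counts do not set the 2 genes apart. The DDX60 window (chr4:168318703-168319002, minus strand) is printed because it holds the interferon-stimulated element core on which antiviral genes are switched on, in capitals, at 2 places.
DDX60: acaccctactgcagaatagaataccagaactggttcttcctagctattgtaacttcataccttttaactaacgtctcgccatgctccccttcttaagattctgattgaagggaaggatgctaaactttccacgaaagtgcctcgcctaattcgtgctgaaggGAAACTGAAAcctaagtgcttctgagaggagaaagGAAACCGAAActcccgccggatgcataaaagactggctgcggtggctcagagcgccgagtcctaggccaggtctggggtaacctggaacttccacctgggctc

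Motifs were searched on both strands in the 300-base RefSeq windows, by the first one listed for each gene: TGANTCA for AP-1, GGAATG for TEAD, TGTGGTT for RUNX and the interferon-stimulated response element core by its name. Each motif was counted on its own, whether or not its letters overlap another's, and a match is a description of letters only. TEAD letters were in 20.8% of 130 genes called higher, 10.9% of 55 called lower, 11.0% of 5799 genes compared and 14.1% of all 27305 windows. AP-1 letters were in 7.69% of the higher genes, 7.27% of the lower ones, 4.50% of those compared and 7.76% of all windows. For RUNX the shares were 5.38%, 1.82%, 2.81% and 4.28%, and for the interferon element 5.38%, 1.82%, 3.12% and 3.65%. Only 1 of the lower genes held each of the last 2.

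Clusters of all cells were computed from chromatin counts alone, but their scaling was adopted with the members' places known. Of 6 clusters, cluster 2 held 1983 cells (22.2% of all) and 224 of the 400 members, 56.0% (51.0 to 60.9). Members made up 11.3% of cluster 2 and 2.85% of cluster 1, the largest, which held 148 members. Clusters 3 and 4, with 667 and 656 cells, held 3 and 8 members. The 5 cells with the highest shares were all in cluster 2. In this clustering the members were concentrated in 1 cluster and not confined to it, and the concentration depends on the scaling. Of 3 scalings of the components that were looked at, the one used was adopted after the cluster sizes and the members' places had been seen under each; the matching cluster held 39.3% of members and 10.5% of all cells with components as they come, and 91.0% of members and 92.4% of all cells with components scaled to the same variance.

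**Figure D4:**
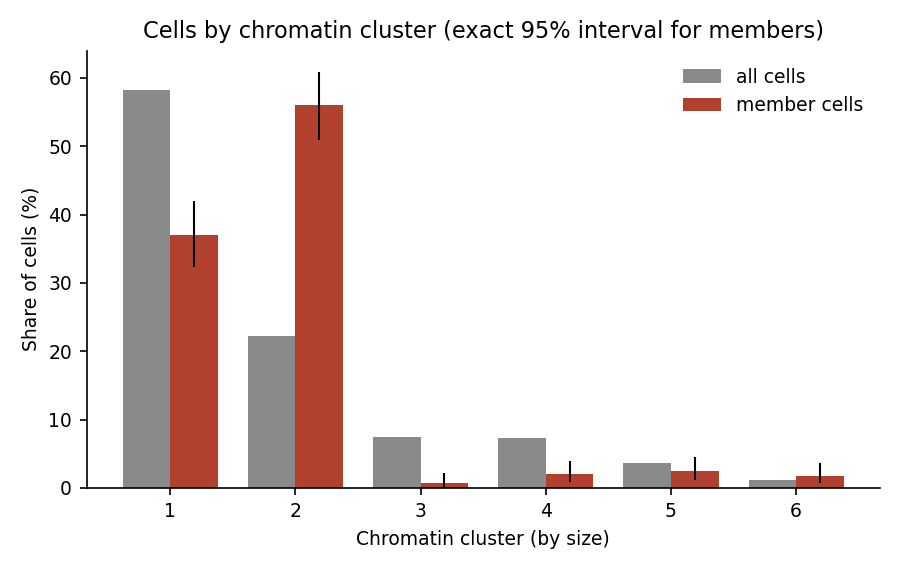
Share of cells (y axis, percent) in each of 6 chromatin clusters, ordered by size (x axis), for all 8913 cells (grey) and the 400 members (red, exact 95% intervals). Cluster 2 holds 22.2% of all cells and 56.0% of members.

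Members in cluster 2 were the stronger ones. Their median share of UMIs in the 3 genes was 0.213%, against 0.176% outside, and 46.9% held 5 or more such UMIs, against 11.4%. They were also deeper, with a median of 1867 UMIs against 1345.5 outside. IL1RAPL1 was seen in 48.2% of them and in 31.3% of members outside, and HMGA2 in 93.8% and 91.5%.

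The leading genes were also read within cluster 2 and outside it, against other cells of the same side. They were chosen on these same members, and 11 of the 15 higher and 8 of the 15 lower genes passed the floor through only 1 group, so the side they lie on supports nothing. The ratios of the 15 higher genes ran from 1.97 to 9.22 (HMGA2-AS1) inside and from 1.05 (KIAA1549L, with 1 UMI) to 10.0 outside. Of the 15 lower genes, 15 intervals inside and 7 outside excluded 1, and DISC1FP1 outside stood at 0.968 (0.762 to 1.21). The interferon list had a median of -0.06 within cluster 2, as members summed to 1638 CPM and other cells of the cluster to 1676. Outside it the median was 0.43, with 1248 against 955 CPM. Acute-phase genes were at 1800 against 2929 CPM inside and 3531 against 4962 outside, lower in members both times.

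The members were also split by rank, as a description only, since the leading genes were chosen on all of them. The ratios of the 15 genes ran from 3.86 to 17.4 in ranks 1 to 200 and from 2.11 to 7.95 in the 200 ranks after them. Both upper ends are HMGA2-AS1, whose reads cannot be told apart from those of HMGA2, a gene that ranked the cells. The next highest was MEG8, at 7.44 and 5.73. MEG8 stood at 40.5 and 31.2 CPM, BMPER at 55.7 and 49.4, and PLAT at 65.8 and 31.2, while DEC1 was the only one of the 15 with the lower level in the first 200, at 25.3 and 33.8. SLPI stood at 1334 CPM in the first 200 and 1777 in the rest. The median ratio of the 15 genes was 4.58 in the first 200 members and 3.12 in the others.

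Whole chromosomes differed in their share of peak counts. Whether DNA copy number or accessibility differed was not tested. Chromosome 3 took 5.36% of members' peak counts and 6.01% of other cells', a ratio of 0.893 (0.885 to 0.900), and all 20 bins of 10 Mb were below 1, from 0.805 to 0.940. Chromosome 18 gave 0.895 (0.881 to 0.909), with 9 of 9 bins below 1: the first 20 Mb lay at 0.979 and 0.997 and the bins beyond 30 Mb at 0.79964 to 0.862. Chromosomes 22 (0.934) and 4 (0.948) were lower too. Chromosome 14 was higher, at 1.10 (1.08 to 1.11), most in the bin from 60 to 70 Mb (1.23, 1.20 to 1.26), and chromosome 8 at 1.08 (1.07 to 1.09), with 15 of 15 bins above 1. On the X chromosome, where IL1RAPL1 lies, the ratio was 1.01.

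Single cells showed the same on chromosome 3, where the median share was 5.49% in members and 6.03% in other cells (lower to upper quartile 4.84 to 6.09% and 5.48 to 6.5027%). The cells of both groups overlap widely. In RNA, the median log2 ratio of genes was 0.01 on chromosome 3, -0.02 on chromosome 18 and 0.14 on chromosome 14, beside 0.09 for all genes. Inside cluster 2 the chromosome 3 ratio was 0.954 and outside it 0.955. The chromosome 3 ratio was thus nearer 1 when members were set against cells of the same side of that cluster.

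**Figure D5:**
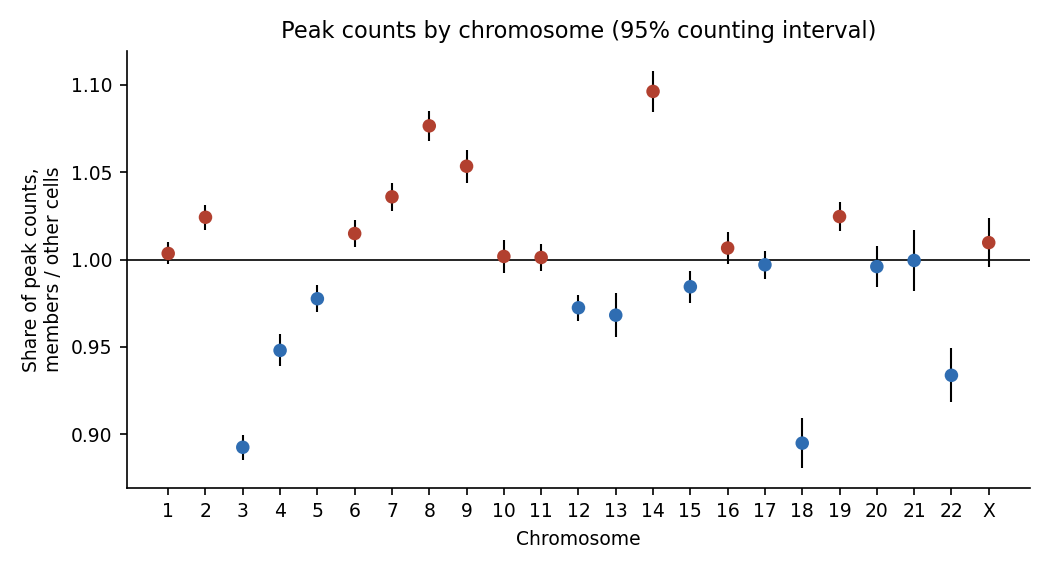
Ratio of the share of peak counts, members over other cells (y axis, 95% counting intervals), for each chromosome (x axis). Chromosomes 3 and 18 lie lowest, at 0.893 and 0.895, and chromosome 14 highest, at 1.10.

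Finally, members were set against 3 other groups of 400 cells, each chosen by a trio of genes in the same way, without shared cells. The counts of genes leave out the genes of either rule. Cells rich in INHBA, IGFBP5 and ADAMTS6 shared 21 cells with the members, those rich in CYP24A1, CLSTN2 and ERBB3 shared 7, and those rich in ADGRL3, PPP2R2B and ITGB8 shared 10. Against the first, 30 of 2615 genes (1.15%) were higher in members and 33 (1.26%) lower. Against the second, 63 of 2672 (2.36%) were higher and 56 (2.10%) lower. Against the third, 66 of 2555 (2.58%) were higher and 58 (2.27%) lower. At 1.5-fold, the acute-phase list had 1 of 5 genes lower against the first group, 3 of 5 against the second and 2 of 5 against the third. Its medians were -0.06, -0.89 and -0.36. The interferon list had 1 of 8, 5 of 7 and 3 of 5 higher, with medians of 0.33, 0.77 and 0.75. Mesothelial markers had 2 of 9, 7 of 9 and 4 of 9 lower. In each case 0 genes went the other way.

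The leading genes were chosen on the same members, so their values here are a description. Of the 15 higher genes, 14 were above 1 against the first group, the exception being ADAMTS6, which chose that group, and 15 against each of the others. Of the 15 lower genes, 13 were below 1 against the first group (not CFB and PTPRQ) with 10 intervals that exclude 1. Against each of the others 15 were below 1, with 14 such intervals against the second and 9 against the third. MTSS1, an actin and membrane bending protein, stood at 177 CPM in members and 54.6 in the first group (3.23-fold, 2.25 to 4.73). AC004704.1 was the reverse, at 47.9 against 553 CPM. Only 20.3%, 12.3% and 4.75% of the 3 groups lay in cluster 2, beside 56.0% of the members.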

How the data were processed

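RNA and chromatin accessibility were measured together in cells of 1 hashtag pool, labelled as 3 libraries, and 1 matrix holds the pool. The deposited values are whole-number counts, UMIs per gene and peak counts per peak, with no normalization. Per the submitters' processing notes the tools were Cell Ranger ARC 2.0.0, Cell Ranger 2.0.0, MACS2 and ArchR 1.0.3 with GRCh38.p10; their order and the strand setting are not given in the sources used here. Members and gene lists were chosen with earlier results of these data known.

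From these counts, sums over members and over other cells were compared as CPM, with exact conditional binomial 95% intervals, counting 2 peak counts as 1 event. Totals leave out the UMIs of the 3 rule genes, except where those genes' own levels are given. Intervals and limits cover counting error only: there is 1 sample, so no test was possible. Genes named are the 15 with the highest lower bound and the 15 with the lowest upper bound among genes past the floors, and list genes past 1.5-fold; some list genes are not reported here. Cells hold 30.4% of UMIs and 41.1% of peak counts, and 2217 of 11130 barcodes were over the mitochondrial limit. Clusters used a TF-IDF decomposition (30 components, 29 kept), 15 neighbours, Jaccard weights and Leiden at a resolution of 0.5. Motifs, promoters shown, span classes, accessibility windows, and rank and cluster splits were chosen after seeing the data. Spans were matched by symbol in RefSeq (96.3% of genes), and sequences are RefSeq's, GRCh38.p14. The comparison was run on simulated independent counts with known fold changes. The simulation held no variation between cells and no choice of members on the same counts, so it does not test the comparison under those conditions. Software was Python 3.11.15, NumPy 2.4.6, SciPy 1.17.1, scanpy 1.11.5, leidenalg 0.10.2 and, for TMM, edgeR 4.0.16 in R 4.3.3.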

Additional observations from a re-analysis of the deposited data

How the results depend on the processing

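No paired analysis was possible because there is 1 pool and no replicate. Of 1796 log2 ratios of named genes under other settings, 1515 moved by less than their interval, 253 moved further and 28 turned. Settings that change only the gene floor leave each gene's ratio as it was, so their values are among the 1515 by construction. Of 216 list medians, 194 moved by less, 19 moved further and 3 turned. Settings that moved a count by over 1.5 times, a share or ratio beyond its interval, or turned a log2 ratio follow. Choosing 200 members gave genes 388 higher and 173 lower, peaks 2176 higher, ratios of 1.12 (chromosome 14), 0.862 (chromosome 18), 67% of members in the cluster, log2 ratios of NRAS -0.15. Choosing 800 gave genes 65 higher and 18 lower, peaks 310 higher and 200 lower, list genes 36 higher, ratios of 0.911 (chromosome 3), 1.08 (chromosome 14), 48% of members in the cluster. Leaving HMGA2 out of the choice gave genes 119 higher and 47 lower, list genes 34 higher and 16 lower, ratios of 0.926 (chromosome 3), 0.926 (chromosome 18), log2 ratios of YEATS4 -0.60, BMP4 0.086, HMOX1 0.36. Raising both count minimums (2307 cells) gave genes 66 higher and 46 lower, peaks 666 higher, ratios of 1.11 (chromosome 14), log2 ratios of NRAS -0.12, YEATS4 -0.13. Choosing members again among cells with at most 10% mitochondrial UMIs gave genes 5 higher and 9 lower, peaks 57 higher and 166 lower, list genes 13 higher and 4 lower, ratios of 0.942 (chromosome 3), 1.04 (chromosome 14), 0.928 (chromosome 18), log2 ratios of AJUBA 0.17, SPRED1 -0.19, NRAS -0.23, IL1R1 0.11, LINC-PINT -0.18, TYMS -0.10, BCL2L1 -0.14, SLC7A11 -0.27, HMOX1 0.36, ABCC3 -0.022, MSLN 0.087, SYT1 -0.23. TMM scaling, which shifts all log2 ratios alike, gave genes 81 higher and 148 lower, list genes 31 higher and 59 lower, log2 ratios of G2 M phase -0.037. A minimum of 10 UMIs gave genes 420 higher and 169 lower. A floor of 200 peak counts and 20 CPM gave peaks 115 higher and 51 lower. A floor on the level over all cells gave genes 100 higher, peaks 92 higher. The 85 original members with at most 10% mitochondrial UMIs gave genes 54 higher, peaks 262 higher and 155 lower, list genes 13 higher and 8 lower, ratios of 0.933 (chromosome 3), 1.03 (chromosome 14), 0.933 (chromosome 18), log2 ratios of MAPK output -0.0031, TSPAN5 -0.25, IMMP2L -0.0039, ADAMTS3 0.032, SLC7A11 -0.47, SESN2 -1.54, SYT1 -0.11. Cells of cluster 2 alone gave genes 58 higher, peaks 291 higher, list genes 30 higher and 17 lower, ratios of 0.954 (chromosome 3), 1.04 (chromosome 14), 0.958 (chromosome 18), log2 ratios of interferon response -0.063, IL1R1 0.19. Cells outside it gave list genes 43 higher and 7 lower, ratios of 0.955 (chromosome 3), 1.03 (chromosome 14), 0.982 (chromosome 18), log2 ratios of NUF2 -0.14, SLC2A1 -0.27. A resolution of 1.0 put 48% of members in a cluster of 16.6% of all cells. One of 0.25 put 96.5% of members in a cluster of 89.9% of all cells. Unscaled components put 39.3% of members in a cluster of 10.5% of all cells. Components of equal variance put 91% of members in a cluster of 92.4% of all cells. The cause was not tested. Where members were chosen again among 1592 cells with at most 10% mitochondrial UMIs, they made up 25.1% of those cells and 282 held 1 UMI of the rule genes. Depth limits genes with few UMIs and single peaks most.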
